A study of Mus musculus with 24 samples.

Results

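The mature miRNAs of the miR-466, miR-467, miR-669, and miR-297 families, most of which lie in 1 intron of the gene Sfmbt2, were examined in 3 brain regions of neonatal mice early after hypoxic-ischemic brain injury (HIBI). Members were all mouse miRNA entries with 1 of these 4 family names, whatever letter, copy number, or arm followed, which gave 65 members of 1531 mouse entries. Read counts were available for 24 small-RNA libraries, made from the right cerebellum, right striatum/thalamus, and right cortex of each of 8 CD1 pups at postnatal day 9. The 4 HIBI pups (pups 1, 4, 5, and 7) had the right common carotid artery cauterized under isoflurane with local bupivacaine and later breathed 8% oxygen for 30 min. The 4 sham pups (pups 2, 3, 6, and 8) were given isoflurane and bupivacaine too and had the neck opened, but kept both carotids intact and spent the separation from the dam in normal air. All pups were killed 30 min after the hypoxia or the sham period. Pups of both sexes were used, their sex is not given per pup, and none of these libraries came from hypoxia alone or carotid closure alone, so that these parts of the injury cannot be told apart. The questions were how the members differed between the regions without injury, whether they differed between HIBI and sham in any region, and whether such a difference varied between regions.

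MiRNAs are cut from hairpin precursors. Each hairpin gives a 5p and a 3p strand, and the strand held by an Argonaute protein pairs with messenger RNAs through its seed, bases 2 to 8. Sfmbt2 encodes a Polycomb-group protein, a class of proteins that keep genes repressed through chromatin. In mice it is known as an imprinted gene, read from the paternal copy in extraembryonic tissue, and its intronic miRNA cluster is best known from the placenta and from stem cells. The cluster is a rodent feature that grew by repeated duplication, so that its members are close in sequence.

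The shared name did not always mean the Sfmbt2 locus. In the GENCODE M21 annotation of mouse build GRCm38, these families had 81 hairpins. Of these, 71 lay in intron 10 of the transcript Sfmbt2-201 on chromosome 2 (intron 10461473 to 10523944, plus strand), within a span of 51.6 kb. The other 10 were on other chromosomes. The hairpin of miR-466i lay on chromosome 13 (17747473 to 17747593), antisense within an intron of Cdk13, a cyclin-dependent kinase gene. That of miR-467h was intergenic on chromosome 9 (115381819 to 115381939). By this annotation, 51 members came from Sfmbt2 hairpins alone, 9 from hairpins outside it alone, and 5 from both kinds. The 9 outside members held 2338 of the 32129 reads of all members, and the 51 Sfmbt2 members held 29687.

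Mature sequences from RefSeq (GRCm38.p6) matched 8 of the 65 members, all of them from outside Sfmbt2. Both measured outside members among them, miR-466i-3p and miR-467h, are shown with 3 relatives that had 1 to 6 reads each, because they show how far members of 1 family can differ in the seed. Capitals mark the seed, and sequences run 5′ to 3′.
miR-466i-3p: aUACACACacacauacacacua
miR-466k: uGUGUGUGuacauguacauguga
miR-467f: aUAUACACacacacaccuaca
miR-467h: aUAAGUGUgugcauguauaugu
miR-669n: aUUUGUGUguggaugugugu
No pair of the 8 had the same seed. Purines and pyrimidines alternated over 20 of the 22 bases of miR-466i-3p and over 22 of the 23 bases of miR-466k, with CA steps prevailing in the first and UG steps in the second. The sequences of miR-466i-3p and miR-466k, named as 1 family, were 14 single-base edits apart. miR-466i-3p was closer to miR-467f, at 5 edits, which was the smallest distance among the 8 and also that between miR-467f and miR-467g.

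The families were a small part of the brain miRNA pool. Libraries held 1254185 to 3406624 mouse miRNA reads, of which 618 to 2451 were reads of members, or 0.0595% of all mouse counts. Between 29 and 49 of the 65 members had a read in a given library. Levels are given as CPM, that is, reads scaled to a common library total, with totals corrected by TMM, which lines up the bulk of miRNAs over the 24 libraries. A single read covers a mature miRNA, so levels were not divided by length. Members with a mean above 1 CPM were tested singly, which left 32 members holding 98.3% of the member reads. The members nearest this limit were miR-669b-5p, at 1.07 CPM, and miR-466f-3p, at 0.953 CPM. By number, 13 of 26 miR-466, 8 of 13 miR-467, 11 of 21 miR-669, and 0 of 5 miR-297 members passed. The 5 miR-297 members had 92 reads together in 24 libraries, so that no difference between groups was measurable for them. The brain miRNAs miR-124-3p, miR-9-5p, and miR-128-3p, used to check the tissue, summed to 68200 to 236800 CPM in every library. These are bulk tissue levels, in which fewer cells of a type and less RNA per cell cannot be told apart.

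Reads were concentrated in a few members, and the reads counted per entry did not follow the number of annotated hairpins. The highest member was miR-669c-5p, with 3609 reads and 1 annotated hairpin. It was followed by miR-669a-3p (2333 reads, 12 hairpins by name), miR-669o-3p (2240 reads, 1 hairpin), miR-466a-3p (1956 reads, 1 hairpin), and miR-466e-3p (1951 reads, 1 hairpin). Of those 12, the copy Mir669a-3 also has a 3p entry of its own, miR-669a-3-3p, with 22 reads. miR-467a-5p had 1835 reads from 10 hairpins, and miR-467d-5p had 1689 from 1. miR-669a-3p, miR-669o-3p, miR-466a-3p, and miR-466e-3p belong to sets whose counts could not be told apart, as described below. For these, the reads of a single entry are uncertain and cannot be set against its hairpin number. miR-669c-5p, miR-467a-5p, and miR-467d-5p were in no such set. That comparison finds only entries with near-equal counts, so reads shared unevenly with other members would not be seen. No mature sequence was available for them, and whether their counts are their own was not tested.

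The families differed in the strand with more reads. Both strands had an entry for 22 hairpin names, 19 of them with at least 50 reads. All 8 such miR-466 names had more reads on the 3p strand, all 5 miR-467 names had more on the 5p strand, and the 6 miR-669 names were divided, 3 and 3. These names are not all separate measurements. Strands of miR-466a, miR-466b, miR-466c, miR-669a, miR-669o, and miR-669p belong to the sets, described below, whose counts could not be told apart. For miR-466a the 5p strand had 2 reads and the 3p strand 1956. For miR-467c the order was the opposite, with 1367 reads on 5p and 2 on 3p. The most even of the 19 was miR-669f, with 375 reads on 5p and 469 on 3p.

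Several entries could not be told apart by their counts. Among all 496 pairs of the 32 members, 6 pairs had reads that differed between the libraries by little more than counting error, with a chi-square per library under 1.5. These pairs formed 4 sets. miR-669a-3p and miR-669o-3p had a chi-square per library of 1.26, and miR-466a-3p and miR-466e-3p of 1.03. miR-466b-3p, miR-466c-3p, and miR-466p-3p had 815, 818, and 790 reads, and miR-669a-5p and miR-669p-5p had 1078 and 1133. In contrast, miR-466a-3p and miR-466b-3p moved together over the 24 libraries (r = 0.868, a description over libraries of 3 regions) at different levels, with a chi-square per library of 20.6. How reads that match several members were assigned is not given in the sources used here, so single members of these sets are uncertain and their sums are given beside them.

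**Figure D1:**
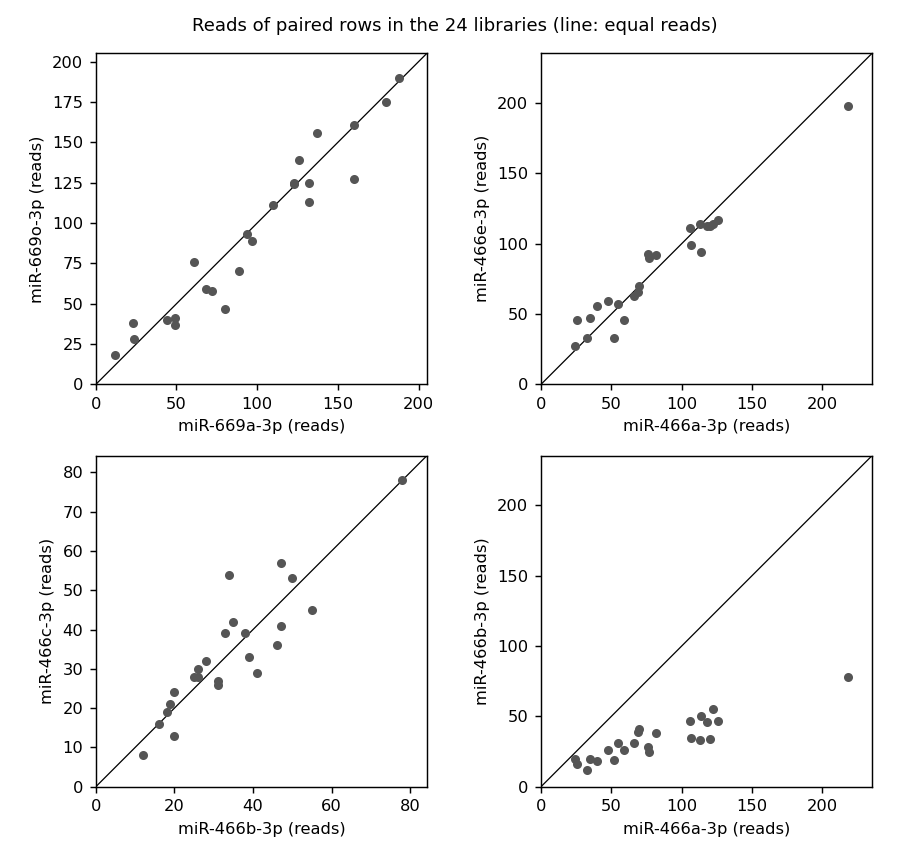
Reads of paired entries, 1 point for each of the 24 libraries, with the line of equal reads. miR-669a-3p and miR-669o-3p, miR-466a-3p and miR-466e-3p, and miR-466b-3p and miR-466c-3p lie along the line, whereas miR-466b-3p (815 reads in all) lies below miR-466a-3p (1956 reads) in each library.

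The summed level of the 65 members was highest in the cerebellum, intermediate in the striatum/thalamus, and lowest in the cortex in each of the 8 pups. The order of the latter regions depended in part on miR-669c-5p, and without it HIBI pup 7 had 410 CPM in the striatum/thalamus and 423 CPM in the cortex. In sham pups 2, 3, 6, and 8 the sum was 1004, 1019, 878, and 647 CPM in the cerebellum. It was 636, 658, 574, and 482 CPM in the striatum/thalamus of these pups. In their cortex it was 472, 534, 454, and 345 CPM. Sham cortex and sham cerebellum did not overlap, while the striatum/thalamus overlapped both, with pup 8 lowest and pup 3 highest in every region. The sham means were 887 ± 172, 587 ± 78.9, and 451 ± 79.0 CPM (SD, n = 4), and the cortex had 0.509 of the cerebellar level. This ratio ran from 0.470 to 0.610 over the 8 pups taken one by one.

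**Figure D2:**
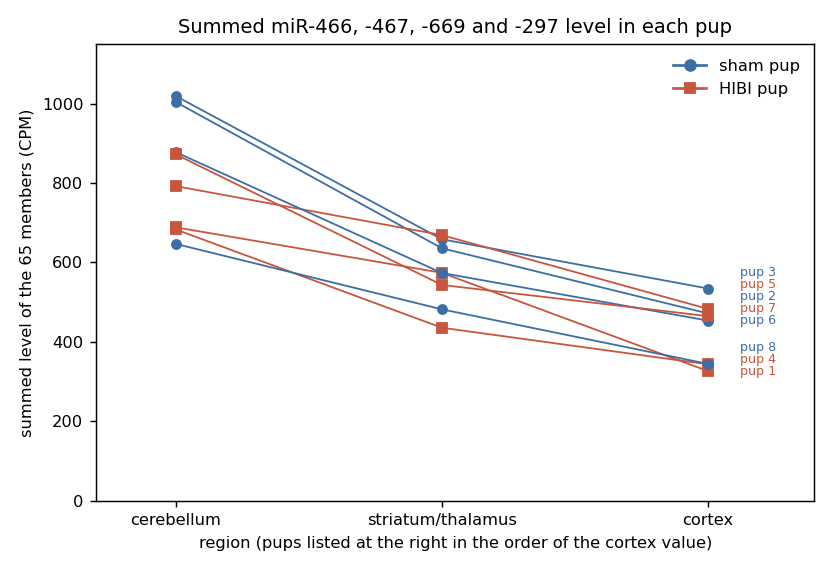
Summed level of the 65 members in CPM in the 3 regions, with 1 line per pup, sham in blue circles and HIBI in red squares. Every line falls from cerebellum to striatum/thalamus to cortex, and the HIBI and sham lines cross and overlap in all 3 regions.

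The order held in the families with measurable levels, with 1 exception. In sham pups miR-466 summed to 309 ± 99.6, 193 ± 60.3, and 144 ± 36.7 CPM (SD, n = 4) in cerebellum, striatum/thalamus, and cortex. miR-669 summed to 345 ± 77.4, 258 ± 50.7, and 172 ± 25.6 CPM. miR-467 was 230 ± 35.1 CPM in the cerebellum and then equally low in the striatum/thalamus (134 ± 14.8 CPM) and the cortex (134 ± 19.0 CPM). The 9 members from outside Sfmbt2 had the same order as the Sfmbt2 members, at 54.5 ± 6.05, 45.0 ± 10.1, and 30.1 ± 5.88 CPM against 830 ± 166, 542 ± 76.5, and 420 ± 73.8 CPM. No test was made on these sums, since the families were chosen with results known.

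Single members were compared between the sham regions by edgeR's quasi-likelihood test over the 727 miRNAs with a mean above 1 CPM, with Benjamini-Hochberg adjusted p under 0.05 as the threshold, which limits the expected share of false calls. A log2 fold change of 1 is a doubling. Between cortex and cerebellum, 13 of 32 members passed, all lower in the cortex, beside 39.1% of all 727 miRNAs. The share that passed was thus near the background, while the direction was not, with 31 of 32 members below 0 and a median log2 fold change of -0.99, against a median of -0.10 over all miRNAs. Above 0 lay 3.12% of the members and 47.3% of all 727 miRNAs. The 32 entries are not 32 separate measurements, since the 4 sets described above could not be told apart by their counts. The 13 were miR-669c-5p, miR-669a-3p, miR-669o-3p, miR-669a-5p, miR-669o-5p, miR-466a-3p, miR-466b-3p, miR-466e-3p, miR-466g, miR-466h-3p, miR-467a-5p, miR-467c-5p, and miR-467d-5p. For 11 of the 32 members the groups did not overlap, all lower in cortex, against 37% of all miRNAs. With fewer libraries the number that passed fell to 5 without pup 2, 5 without pup 3, 8 without pup 6, and 8 without pup 8. The count over all miRNAs also fell, from 284 to 208, 198, 257, and 228.

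miR-669o-3p and its twin miR-669a-3p were highest in the cerebellum in 7 of 8 pups, but their cortex lay below their striatum/thalamus in only 2 of 8. miR-669o-3p was at 77.8, 70.5, 67.1, and 49.3 CPM in the cerebellum of sham pups 2, 3, 6, and 8, and at 27.4, 39.8, 27.4, and 20.8 CPM in their cortex. It was at 51.9, 24.5, 19.9, and 14.0 CPM in their striatum/thalamus, where pup 2 alone reached the cerebellar range. The log2 fold change was -1.19 ± 0.352 (SE) in cortex against cerebellum (adjusted p = 0.0121, edgeR) and -1.27 ± 0.355 in striatum/thalamus against cerebellum (adjusted p = 0.00744, edgeR). The latter was not past the threshold without pup 3 (adjusted p = 0.0616) or without pup 6 (adjusted p = 0.0561). The 2 entries together were at 135 ± 28.2 CPM in the cerebellum, 56.7 ± 33.7 CPM in the striatum/thalamus, and 63.6 ± 10.7 CPM in the cortex (SD, n = 4).

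The other sets of twin entries followed. miR-466a-3p and miR-466e-3p together were at 126 ± 36.5, 63.4 ± 32.8, and 52.5 ± 17.6 CPM (SD, n = 4) in sham cerebellum, striatum/thalamus, and cortex. miR-466b-3p, miR-466c-3p, and miR-466p-3p together were at 69.7 ± 19.6, 39.9 ± 16.8, and 34.2 ± 11.2 CPM. Of these 3 near-equal entries, miR-466b-3p passed in cortex against cerebellum (adjusted p = 0.0165, edgeR) while miR-466p-3p (adjusted p = 0.0515) and miR-466c-3p (adjusted p = 0.112) did not, although their reads could not be told apart. miR-669a-5p and miR-669p-5p together were at 64.3 ± 12.6, 37.2 ± 14.6, and 35.15 ± 8.06 CPM in the same order of regions. There too, miR-669a-5p passed in cortex against cerebellum and miR-669p-5p did not.

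Between striatum/thalamus and cerebellum, 6 of 32 members passed, all lower in the striatum/thalamus, beside 42.4% of all miRNAs. The median over the 32 was -0.68 and that over all miRNAs 0.0271 on the log2 scale, with 27 of 32 members below 0. Scaling by library size alone moved the median of all miRNAs to 0.15 and left 3 members past the threshold. The 6 were miR-467d-3p, miR-467d-5p, miR-467e-5p, miR-669a-3p, miR-669o-3p, and miR-466a-3p. With the pup as a block, since the regions came from the same pups, the count was also 6, miR-467d-5p then missing the threshold (adjusted p = 0.0577, edgeR) and miR-466e-3p passing it (adjusted p = 0.0252). The count was 3 without pup 2, 1 without pup 3, 1 without pup 6, and 4 without pup 8, and that over all miRNAs 261, 258, 311, and 241. When the region difference was averaged over sham and HIBI pups, 12 members passed, 11 lower and 1 higher in the striatum/thalamus. The count over all miRNAs rose from 308 to 374 of 727.

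Between cortex and striatum/thalamus, 2 of 32 members passed, beside 21.3% of all miRNAs, and they went in opposite directions. They were miR-669c-5p, lower in cortex, and miR-467d-3p, higher in cortex. The median log2 fold change was -0.32 for the members and -0.0464 for all miRNAs.

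miR-669c-5p, the most abundant member, departed from the common order. In sham pups 2, 3, 6, and 8 it was at 102, 111, 81.4, and 41.5 CPM in the cerebellum and at 102, 124, 128, and 107 CPM in the striatum/thalamus. In the cortex of these pups it was at 34.1, 30.8, 53.2, and 21.3 CPM. Cortex lay below striatum/thalamus with no overlap, whereas the striatum/thalamus and cerebellum overlapped. The log2 fold change was -1.72 ± 0.318 (SE) in cortex against striatum/thalamus (adjusted p = 0.00113, edgeR) and -1.26 ± 0.316 in cortex against cerebellum (adjusted p = 0.00426), the latter missing the threshold without pup 3 (adjusted p = 0.0589). It was 0.46 in striatum/thalamus against cerebellum (adjusted p = 0.243), and 0.73 when averaged over sham and HIBI pups (adjusted p = 0.0205). miR-669c-5p made up 19.85% ± 3.08 of the summed member level in sham striatum/thalamus, against 9.18% ± 1.96 in the cerebellum and 7.72% ± 2.74 in the cortex (SD, n = 4). Without it, the sum of the other members in sham striatum/thalamus was 0.588 of the cerebellar sum, and the ranges of these regions no longer overlapped. The sham cortex sum was then 0.882 of that of the striatum/thalamus, against 0.768 with miR-669c-5p, with overlap in both cases.

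miR-467d-3p had its lowest level in the striatum/thalamus. It was at 25.8, 18.1, 30.7, and 9.58 CPM in the cerebellum of sham pups 2, 3, 6, and 8, at 9.49, 7.49, 3.88, and 9.49 CPM in the striatum/thalamus, and at 19.9, 19.3, 21.2, and 13.3 CPM in the cortex. The striatum/thalamus overlapped neither of the others, although pup 8 nearly closed the gap to its own cerebellum. The log2 fold change was -1.46 ± 0.404 (SE) against cerebellum (adjusted p = 0.00668, edgeR), and cortex exceeded striatum/thalamus by 1.28 ± 0.402 (adjusted p = 0.0281). The second call was lost without pup 2, 3, or 6 (adjusted p = 0.0757 to 0.146) and in the average over sham and HIBI pups (0.67, adjusted p = 0.0733), and the first without pup 6 (adjusted p = 0.109). Its partner strand miR-467d-5p had a different order, at 55.8 ± 20.01 CPM in the cerebellum, 30.3 ± 12.1 CPM in the striatum/thalamus, and 22.7 ± 3.95 CPM in the cortex (SD, n = 4). The 3p strand accordingly made up 43.5% to 46.0% of both strands in the 4 sham cortex libraries and 10.1% to 38.7% in the 8 sham libraries of the other regions, while in HIBI cortex it ran from 18.2% to 48.5%.

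**Figure D3:**
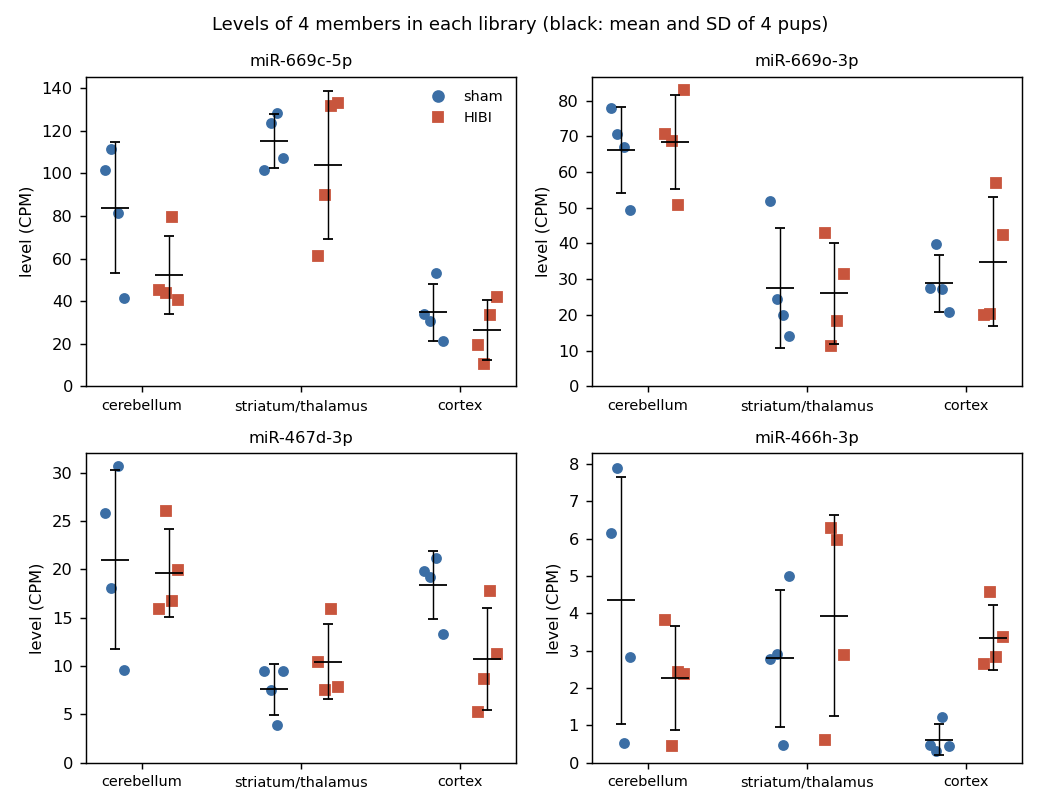
Levels in CPM of miR-669c-5p, miR-669o-3p, miR-467d-3p, and miR-466h-3p in the 24 libraries by region, sham in blue circles and HIBI in red squares, with black marks for mean and SD of 4 pups. miR-669c-5p is low in the cortex, miR-669o-3p is highest in the cerebellum, miR-467d-3p is lowest in sham striatum/thalamus, and miR-466h-3p is separated by injury in the cortex.

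The 3 measured members from outside Sfmbt2 differed in their order of regions. miR-466i-5p followed the order of the sums, at 12.04 ± 3.23, 9.97 ± 5.74, and 5.24 ± 2.50 CPM in sham cerebellum, striatum/thalamus, and cortex (SD, n = 4), with an adjusted p of 0.0564 in cortex against cerebellum (edgeR). miR-466i-3p, whose sequence is given above, was at 21.5 ± 11.2 CPM in sham cerebellum, 23.6 ± 6.88 CPM in striatum/thalamus, and 10.6 ± 2.80 CPM in cortex (SD, n = 4). Its cortex lay below its striatum/thalamus with no overlap (log2 fold change -1.14, adjusted p = 0.0631, edgeR), and this passed the threshold with the pup as a block (adjusted p = 0.0443). miR-467h was at 19.8 ± 7.49, 10.7 ± 5.14, and 13.9 ± 2.20 CPM in the same order of regions, with overlap throughout and an adjusted p of 0.323 in cortex against cerebellum. Among Sfmbt2 members, miR-669o-5p was at 14.9 ± 1.24 CPM in cerebellum, 12.9 ± 10.2 CPM in striatum/thalamus, where pup 6 stood at 27.6 CPM, and 5.15 ± 2.90 CPM in cortex (adjusted p = 0.0238 against the cerebellum, edgeR).

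Markers of other cells also differed between the dissections. In sham cortex against sham cerebellum, the threshold was an adjusted p under 0.05 (edgeR), which 39.1% of all 727 miRNAs passed. Among the markers tested, 4 of 4 skeletal muscle, 4 of 6 choroid plexus and ciliated cell, and 2 of 4 erythrocyte miRNAs passed, all lower in cortex. By sign alone, 0 muscle, 1 choroid plexus and ciliated cell, and 0 erythrocyte miRNAs lay above 0. The muscle miRNAs summed to 450 to 612 CPM in sham cerebellum and 28.6 to 67.3 CPM in sham cortex. The erythrocyte miRNAs summed to 1405 to 2274 CPM in sham cerebellum, 1258 to 1689 CPM in striatum/thalamus, and 772 to 1164 CPM in cortex. The choroid plexus and ciliated cell miRNAs summed to 3069 to 11430 CPM in sham cerebellum, with pup 2 highest, and to 1943 to 2882 CPM in the other regions. None of these sums was at 0, and their part in the regional levels of the members was not tested. By contrast, 20 other imprinted miRNAs were tested, among them miR-127-3p and miR-379-5p of the Dlk1-Dio3 locus. Of these, 14 passed the same threshold as higher in cortex and 0 as lower. By sign alone 18 of the 20 lay above 0, the opposite direction to that of the members.

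**Figure D4:**
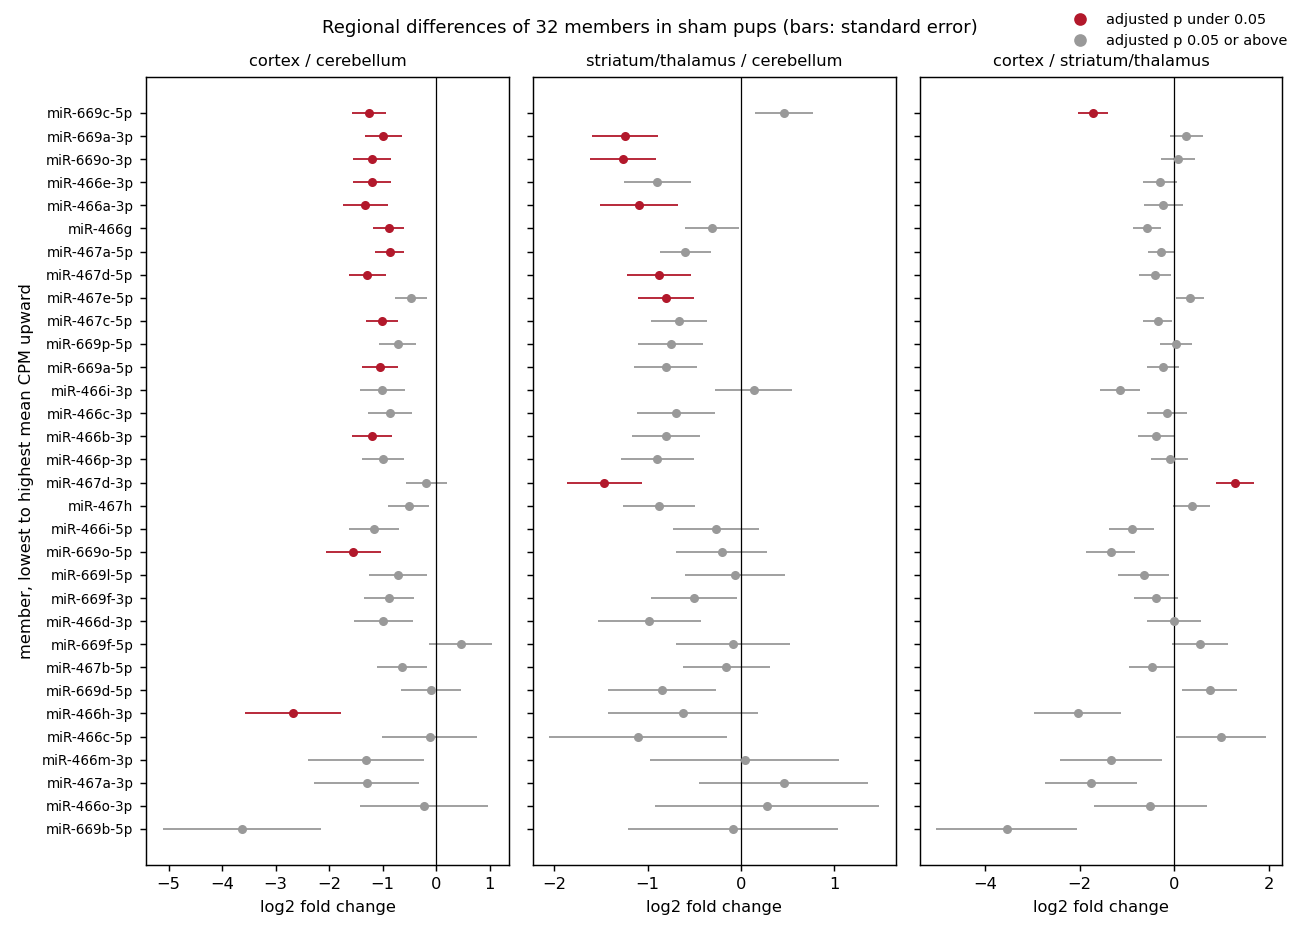
Log2 fold changes between sham regions for the 32 members with their standard errors, members in order of mean level and those with adjusted p under 0.05 in red. In cortex against cerebellum 31 of 32 lie below 0, and in cortex against striatum/thalamus miR-669c-5p and miR-467d-3p stand on opposite sides.

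After HIBI the summed level of the families did not differ from sham beyond the spread between pups in any region. In HIBI pups 1, 4, 5, and 7 the cerebellar sum was 689, 683, 792, and 872 CPM, that of the striatum/thalamus 573.9, 436, 668.9, and 543 CPM, and that of the cortex 327, 344, 483, and 465 CPM. The ranges overlapped those of sham in every region. The log2 ratio of HIBI to sham means was -0.22 for cerebellum, -0.0807 for striatum/thalamus, and -0.16 for cortex, each smaller than the pooled SD between pups on that scale (0.246, 0.231, and 0.279).

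Among single members, 1 met the criteria used here, more than a 1.5-fold difference at an unadjusted p under 0.05. The study's own criteria include a mean above 10 CPM as well. With that limit, 21 members were tested and 0 met them in any region. In the cerebellum 0 of 32 members met them, where 6.46% of all 727 miRNAs did. In the striatum/thalamus 0 of 32 did, beside 2.89% of all. In the cortex 1 of 32 did, beside 5.36% of all. By edgeR, 0 members were past an adjusted p of 0.05 in any region, and at an unadjusted p under 0.05 there were 0, 0, and 1. The DESeq2 Wald test gave the same numbers of members meeting the criteria, 0, 0, and 1. HIBI and sham did not overlap for 0, 0, and 2 members, where 3.16%, 1.65%, and 4.4% of all miRNAs were so separated. The median log2 fold changes of the members were -0.12, -0.0678, and -0.16, against 0.13, -0.0008, and -0.0352 for all miRNAs. In the cerebellum scaling by library size alone moved these medians to 0.0746 for members and 0.30 for all miRNAs, so that the sign of the members' median depended on the scaling while its place below that of all miRNAs did not. In the striatum/thalamus the members' median also turned sign, to 0.0255 by library size (all miRNAs 0.0383), 0.0785 above 10 CPM (0.0535), 0.0432 without pup 3 (-0.0012), and 0.0456 without pup 4 (-0.0183), so that its place against all miRNAs was not stable.

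The member that met the fold and p criteria was miR-466h-3p, which was higher in HIBI cortex and, at a mean of 2.89 CPM, lies below the limit of 10 CPM. It had 1, 1, 4, and 1 reads in the cortex of sham pups 2, 3, 6, and 8 and 5, 9, 8, and 9 reads in that of HIBI pups 1, 4, 5, and 7. These reads correspond to 0.473, 0.321, 1.23, and 0.443 CPM and to 2.64, 4.57, 2.84, and 3.37 CPM. Every HIBI library lay above every sham library. The log2 fold change was 2.31 ± 0.796 (SE, edgeR p = 0.0106, adjusted p = 0.507, exact permutation p = 0.0286, two-sided). Complete separation of 4 against 4 pups always gives this smallest permutation p, which 2 of the 57 comparisons of named members reached. The unadjusted p stayed between 0.00878 and 0.0305 when any 1 pup was left out. In the cerebellum the same member had 38 reads in sham and 18 in HIBI pups, and in the striatum/thalamus 23 and 30, with overlapping groups in both. The lower level of miR-466h-3p in sham cortex than in sham cerebellum (adjusted p = 0.0250, edgeR) rested on the same 4 sham cortex libraries.

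miR-669f-5p was the other member with separate groups. It was at 8.04, 14.4, 8.00, and 8.86 CPM in the cortex of sham pups 2, 3, 6, and 8 and at 4.23, 2.03, 6.02, and 7.85 CPM in that of HIBI pups 1, 4, 5, and 7. The groups nearly touched, with HIBI pup 7 just under sham pup 6. The log2 fold change was -0.94 ± 0.458 (SE, edgeR p = 0.0573, adjusted p = 0.825), and it met the criteria without HIBI pup 7 (p = 0.0298), its exact permutation p being that of any complete separation. It was also the 1 member not lower in sham cortex than in sham cerebellum (0.46), a sign that turned in the average over sham and HIBI pups (-0.0405).

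The abundant members showed no change that passed the criteria. miR-669c-5p was at 45.1, 43.7, 79.4, and 40.8 CPM in the cerebellum of HIBI pups 1, 4, 5, and 7, within the sham range except in pup 7 (log2 fold change -0.68, edgeR p = 0.0727, exact permutation p = 0.171). miR-467d-5p in the cerebellum was at 32.6 to 42.0 CPM in HIBI and 40.4 to 83.0 CPM in sham pups (-0.61, edgeR p = 0.0720, exact permutation p = 0.0857), and it met the criteria without pup 1 (-0.77). miR-466g in the cerebellum was at 24.3 to 36.9 CPM in HIBI and 29.1 to 74.6 CPM in sham pups (-0.65, edgeR p = 0.0724, exact permutation p = 0.143). miR-669a-3p and miR-669o-3p together were at 136 ± 26.4 CPM in HIBI and 135 ± 28.2 CPM in sham cerebellum (SD, n = 4).

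The remaining members with the smallest p in a region were likewise not called. miR-669l-5p in the cerebellum was at 7.63 to 26.9 CPM in HIBI and 7.40 to 15.8 CPM in sham pups (0.55, edgeR p = 0.263, exact permutation p = 0.514). miR-466d-3p in the striatum/thalamus was at 4.13 to 14.0 CPM in HIBI and 1.498 to 12.3 CPM in sham pups (0.91, edgeR p = 0.170, exact permutation p = 0.257). It met the criteria without sham pup 2 (1.58). miR-669b-5p, the member nearest the limit of 1 CPM, had 2 reads in HIBI and 14 in sham striatum/thalamus, but 11 and 1 in the cortex, and reads in 12 of the 24 libraries. In the striatum/thalamus (exact permutation p = 0.143) it met the criteria without HIBI pup 5, which held the 2 HIBI reads.

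Some markers of other cells met the fold and p criteria after HIBI. Of all 727 miRNAs, 6.46% met them in cerebellum, 2.89% in striatum/thalamus, and 5.36% in cortex. At an adjusted p under 0.05 (edgeR), 0 of the 727 passed in cerebellum and 0 in striatum/thalamus. The erythrocyte miRNAs summed to 977 to 1308 CPM in HIBI cerebellum against 1405 to 2274 CPM in sham, with no overlap, and the part of such markers in the results on the members was not tested. Of the 4 erythrocyte miRNAs tested there, 2 met the fold and p criteria as lower, and 1 lay above 0. Of the 4 skeletal muscle miRNAs tested, 1 met them as higher in HIBI cerebellum. The muscle sums overlapped there, at 345.8 to 685.5 CPM in HIBI and 450 to 612 CPM in sham. Of the 6 choroid plexus and ciliated cell miRNAs tested, 2 met the fold and p criteria as lower in HIBI cerebellum, 2 as higher in HIBI striatum/thalamus, and 1, miR-1298-5p, as higher in HIBI cortex. Their sums in HIBI overlapped sham, at 3111 to 5130 against 3069 to 11430 CPM in cerebellum. In striatum/thalamus they were 1722 to 5591 against 1943 to 2771 CPM. In the cortex, where miR-466h-3p was called, the erythrocyte sums were 793 to 1061 CPM in HIBI and 772 to 1164 CPM in sham. The choroid plexus and ciliated cell sums there were 2215 to 4395 CPM and 2333 to 2882 CPM, and the muscle sums 31.0 to 63.9 CPM and 28.6 to 67.3 CPM.

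**Figure D5:**
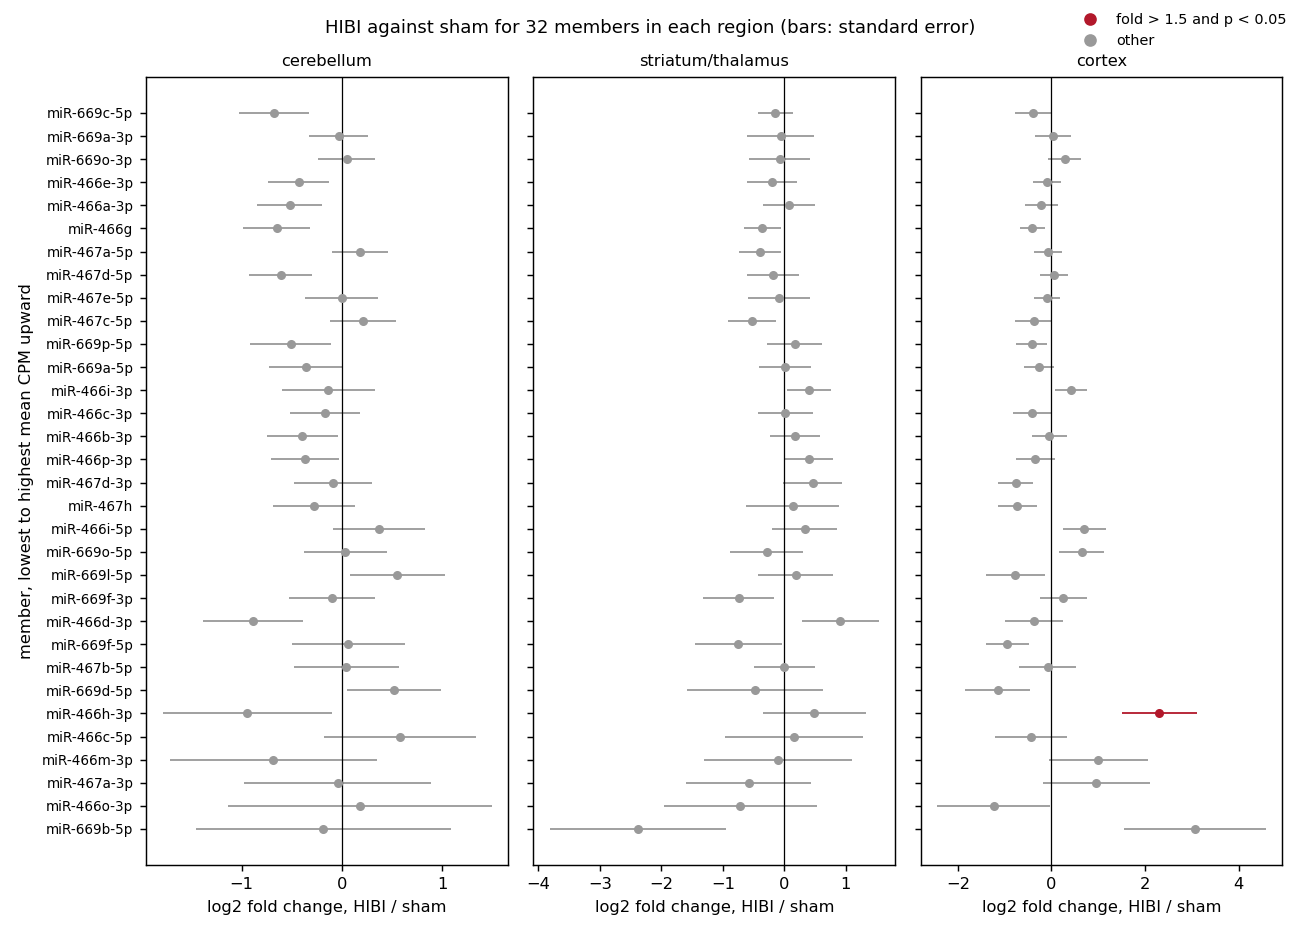
Log2 fold changes of HIBI against sham for the 32 members in each region with their standard errors, in order of mean level, with members meeting the fold and p criteria in red. miR-466h-3p in the cortex (2.31) is the 1 red point, and the widest bars belong to the lowest members.

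The effect of HIBI on the members was not shown to differ between regions. For the mean of striatum/thalamus and cortex minus the cerebellum, 0 of 32 members passed an adjusted p of 0.05 by edgeR beside 0% of all 727 miRNAs. At an unadjusted p under 0.05 there was 1 of 32 members, or 3.12%, beside 12.2% of all. That member was miR-466h-3p (difference 2.34 ± 0.981 on the log2 scale, SE, adjusted p = 0.367, edgeR). For cortex minus striatum/thalamus 0 members passed, again beside 0% of all. At an unadjusted p under 0.05 there were 2 members, or 6.25%, beside 3.03% of all, namely miR-669b-5p (5.42 ± 2.21, SE, adjusted p = 1, edgeR) and miR-467d-3p (-1.23 ± 0.576, SE, adjusted p = 1). The DESeq2 Wald test also gave 0 members past the adjusted threshold in both.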

How the data were processed

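Small-RNA libraries of 8 pups and 3 regions were analysed. The authors aligned reads with Bowtie2 to mature mouse miRNAs from miRBase, and the deposited values are whole-number read counts per mature miRNA, with no normalization. Versions, the miRBase release, and the rule for reads matching several entries are not given in the sources used here. Log2 fold changes, average levels, p-values, and false discovery rates that the authors computed with edgeR stand in the same tables and were not used. Of 1551 entries, 20 castor bean entries with 0.000156% of counts were left out.

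Libraries were scaled by TMM over all 24. The 727 mouse miRNAs with a mean above 1 CPM were tested with edgeR 4.0.16 (quasi-likelihood, R 4.3.3), HIBI against sham in the 8 libraries of each region, regions in the 12 sham libraries, and differences of the injury effect in all 24. DESeq2 1.42.0 served as an alternative. The scripts were tested on simulated data. The exact permutation test used log2(CPM + 1). The members, lists, and tests were chosen with earlier results of these data known. Members were named if they were among the 8 highest, met the criteria, or had the smallest p in a direction (the 3 smallest for regions). P-values of HIBI against sham measure the spread between pups. The main tests between regions and of differences of the injury effect took the libraries as unpaired, with the pup as a block in an alternative run. Hairpins came from GENCODE M21, read by Python 3.11.15.

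The 3 regions came from the same 8 pups, so that the pup number pairs libraries across regions. The deviations of a pup's 2 libraries from their group means correlated over 727 miRNAs with a median r of 0.102, 0.124, and 0.103 for the 3 pairs of regions.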

Additional observations from a re-analysis of the deposited data

Results flagged for a closer look

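For 19 named members and the summed level of all members, each group of 4 pups was examined for 1 pup far from the other 3 by Dixon's test. Of 120 groups, 9 had such a pup, where chance gives about 1 in 20, or 6.

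Some stood high or low on 14 to 195 reads in the flagged pup, and counting error was not computed for them. miR-669c-5p in HIBI cerebellum was at 79.4 CPM in pup 5 and at 40.8 to 45.1 CPM in the others. In the striatum/thalamus of HIBI pups, miR-467d-5p was at 11.95 CPM in pup 4 against 29.5 to 32.9 CPM, and miR-669l-5p at 25.4 CPM in pup 5 against 7.54 to 7.98 CPM. In sham cortex, miR-467d-5p was at 16.8 CPM in pup 8 against 24.1 to 25.0 CPM, and miR-669f-5p at 14.4 CPM in pup 3 against 8.00 to 8.86 CPM. miR-669d-5p was at 7.395 CPM (14 reads) in HIBI cortex of pup 1 against 1.015 to 1.417 CPM.

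The others rested on 4 reads or fewer. miR-669b-5p was at 0.997 CPM (2 reads) in HIBI striatum/thalamus of pup 5 and at 0.3075 CPM (1 read) in sham cortex of pup 6, with 0 in the other pups of each group. miR-466h-3p was at 1.23 CPM (4 reads) in sham cortex of pup 6 against 0.321 to 0.473 CPM.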

How the results depend on the processing

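With no minimum on CPM, the members meeting the injury criteria numbered 1, 1, and 3 in cerebellum, striatum/thalamus, and cortex, in place of 0, 0, and 1, and 0 in cortex with a mean above 10 CPM, which leaves out miR-466h-3p. Leaving out 1 pup gave 0 to 2 (2 without pup 1 or 8, 1 without pup 5), 0 to 1 (1 without pup 2 or 5), and 1 to 3 (3 without pup 1 or 7, 2 without pup 5 or 8). For cortex against cerebellum, 13 members became 7 with no minimum and 5 to 8 with 1 pup left out. For striatum/thalamus against cerebellum, 6 became 3 by library size, 12 in the average over HIBI and sham, 14 in that average with the replicate block, and 1 to 4 with 1 pup left out. For cortex against striatum/thalamus, 2 became 4 by library size, with a mean above 10 CPM, by DESeq2, in the average, and in the average with the replicate block, and 1 to 2 with 1 pup left out (1 without pup 3). The cause was not tested. With the replicate block alone these counts were 13, 6, and 3, with 12 of the 13 also called in the main run. Single members were followed only in the comparison for which they were named. The 8 highest were also followed in both sham comparisons with the cerebellum. Beside the calls named in the report, the block changed no other call of a member so followed. Both differences of the injury effect stayed at 0 members in each alternative run. Among the members followed in this way a sign turned in 2 cases, miR-466g in striatum/thalamus against cerebellum (0.0182 without pup 2, down to -0.35 without pup 8, and -0.31 with all) and miR-669f-5p in cortex against cerebellum (-0.0405 in the average over HIBI and sham). The average with the replicate block, and TMM over the compared libraries only, were chosen after seeing the data. Summed levels kept their sign in each alternative except the striatum/thalamus injury ratio without pup 4 (0.0149). Members near 1 CPM rest on few reads, 1 to 15 per library for miR-466h-3p, which limits the changes measurable for them.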
